A study of Homo sapiens and Mus musculus with 55 samples.

Results

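A set of 10 genes was followed across 4 breast cancer cell lines: TP63, which encodes the transcription factor p63, and the keratin genes KRT5, KRT6A, KRT7, KRT8, KRT14, KRT17, KRT18, KRT19 and KRT81. They were chosen by symbol, with the title-case mouse symbols in mouse cells and Trp63 for TP63, and are 10 of 39118 genes in the human tables and 28000 in the mouse tables. RNA sequencing of 55 libraries was deposited as 10 tables of normalized counts, 1 per experiment. The human lines, SUM159PT and MDA-MB-436, come from triple-negative breast cancer, which lacks hormone receptors and HER2, and the mouse lines Py230 and 4T1 come from mammary tumours. In both human lines, cells labelled Tax-R were set against parental cells (Par), with 2 untreated libraries in each. MYC siRNA-1 or MYC siRNA-2 was given to the human Tax-R cells and to 4T1 cells and set against a control siRNA, in 2 libraries of each human group and 3 of each mouse group. Cells of both human lines with a STING sgRNA, in groups labelled C1 and C2, were set against cells with the genotype Mock, with 2 libraries per group. The labels do not say whether C1 and C2 are clones or guides. Cells with a STING sgRNA plus a STING open reading frame (ORF) were set against cells with the same STING sgRNA label plus a GFP ORF, so both arms carried the sgRNA. Py230 cells carrying an shRNA against Sting1 received doxycycline, labelled Dox(+), or vehicle, labelled Dox(-), with 3 libraries each. Both Py230 arms carried the shRNA and no arm had another shRNA, so the effect of doxycycline and that of Sting1 loss cannot be told apart. No dose, time or age is given in the labels, and nothing in them says that replicates were separate cultures.

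Keratins are the intermediate filament proteins of epithelial cells. A type I keratin (such as KRT14, KRT17, KRT18 or KRT19) pairs with a type II keratin (such as KRT5, KRT6A, KRT7, KRT8 or KRT81), and filaments form only from such pairs. In the mammary gland, luminal cells are known for KRT8 and KRT18 with KRT7 and KRT19, and basal cells for KRT5, KRT14 and KRT17 under the control of p63, a p53 relative that maintains basal and stratified epithelia. KRT6A and KRT17 are induced in wounded or stressed epithelium, and KRT81 is a hair keratin of the cortex of the hair shaft.

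The libraries held 5663610 to 13191675 reads on genes, and a call below means a limma adjusted p under 0.05 in a test over all genes of 1 table with a mean of at least 10. STING1, listed as TMEM173, was at 41.7 to 55.1 normalized counts with the sgRNA against 158 to 182 in mock MDA-MB-436 cells, and at 92.7 to 114 against 229 to 261 in SUM159PT. With the STING ORF it was at 579 to 614 against 21 to 32.1 with GFP in MDA-MB-436 and 1455 to 1599 against 65.4 to 81.1 in SUM159PT, and the mouse gene was at 42.9 to 48.3 in Dox(+) against 768 to 886 in Dox(-) Py230 cells. MYC was at 1897 to 1930.1 with MYC siRNA against 2019 to 2058 with control siRNA in Tax-R cells of MDA-MB-436, at 1426 to 1538 against 2663 to 2727 in SUM159PT Tax-R cells, and at 2220.3 to 2407 against 2390.0 to 2595 in 4T1 cells, where the groups overlapped. Each table was normalized on its own, so levels were compared within a table only. The 2 MDA-MB-436 Tax-R libraries differed by less than sampling noise over most genes but not over the most abundant ones, and counting them as 1 sample changed 0 of 6 member calls. EPCAM, an epithelial surface marker, had group means of 0 to 21.8 normalized counts in the human lines and 1682 to 2561 in the mouse lines. The libraries are bulk RNA, so fewer cells of a type and less RNA per cell cannot be told apart.

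Levels in RPKM, recovered reads scaled to library size and exon length (lengths from GENCODE release 29, which may differ from the authors' annotation) put KRT7, KRT8 and KRT18 above all other members in every human library. In MDA-MB-436 the 3 together held 98.9 to 99.3% of the reads per length of the 9 keratins in Tax-R cells, against 86.2 to 87.5% in parental cells. The SUM159PT shares were 99 to 99.2% in Tax-R and 80.2 to 81.4% in parental cells. With the STING sgRNA the share was 97.5 to 97.8% against 87.6 to 88.1% in mock MDA-MB-436 cells, and 97 to 97.2% against 95 to 95.6% in mock SUM159PT cells. The remainder was larger in parental than in Tax-R cells and in mock than in sgRNA cells, and in MDA-MB-436 it was mostly KRT17, at 8.0 to 8.53 RPKM in parental cells and 32.2 to 33.1 in mock cells. In SUM159PT it was mostly KRT81 in parental cells (12.8 to 15.4) and in mock cells (16.3 to 18.4), followed by KRT5 and KRT6A. KRT7 was the highest of the 3 in every SUM159PT library and in the MDA-MB-436 libraries of the Tax-R, MYC siRNA and STING ORF tables. This order and the shares above rest on exon lengths of 4093 bases for KRT7, 6881 for KRT8 and 3218 for KRT18. Before division by length, mean KRT8 was above KRT7 in parental cells, at 2073.5 against 1349 normalized counts in MDA-MB-436. In SUM159PT parental cells they were at 2141.5 and 1882. In Tax-R cells KRT7 stayed above KRT8, at 1591 against 1312 and 2099 against 1363. In the MDA-MB-436 STING sgRNA table KRT18 had the highest RPKM in every library, and in its mock libraries KRT18 (98.3 to 98.7) and KRT8 (91.2 to 91.7) stood above KRT7 (67.5 to 69.2). By normalized count, not divided by length, KRT8 was above KRT18 in those mock cells, at 4287 against 2159. KRT8 and KRT18 overlap by 525 exon bases on opposite strands and KRT7 shares 282 with an antisense gene, so without stranded counting, which the sources used here do not state, part of these reads cannot be assigned.

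KRT7, KRT8 and KRT18 were tested in all 10 comparisons, and the other members in fewer. As a background, 21.1% to 69.5% of all genes tested were called in a comparison, in either direction. Some member calls were lost with 1 library left out, as given below. KRT7 was tested in 10 comparisons and called higher in 6 and lower in 3, KRT8 was higher in 5 and lower in 5, and KRT18 higher in 2 and lower in 5. TP63 was tested in 9, higher in 3 and lower in 4. KRT17 was tested in 7 (higher in 2, lower in 3), KRT5 in 4 (1 and 2), KRT6A in 4 (1 and 2), KRT81 in 4 (0 and 4), KRT14 in 2 mouse tables (higher in 2) and KRT19 in 1 (higher). A gene high in 1 group alone passes the filter through that group, so these counts describe the tested members and not all 10, and members without a value in a table were not analysed there.

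**Figure D1:**
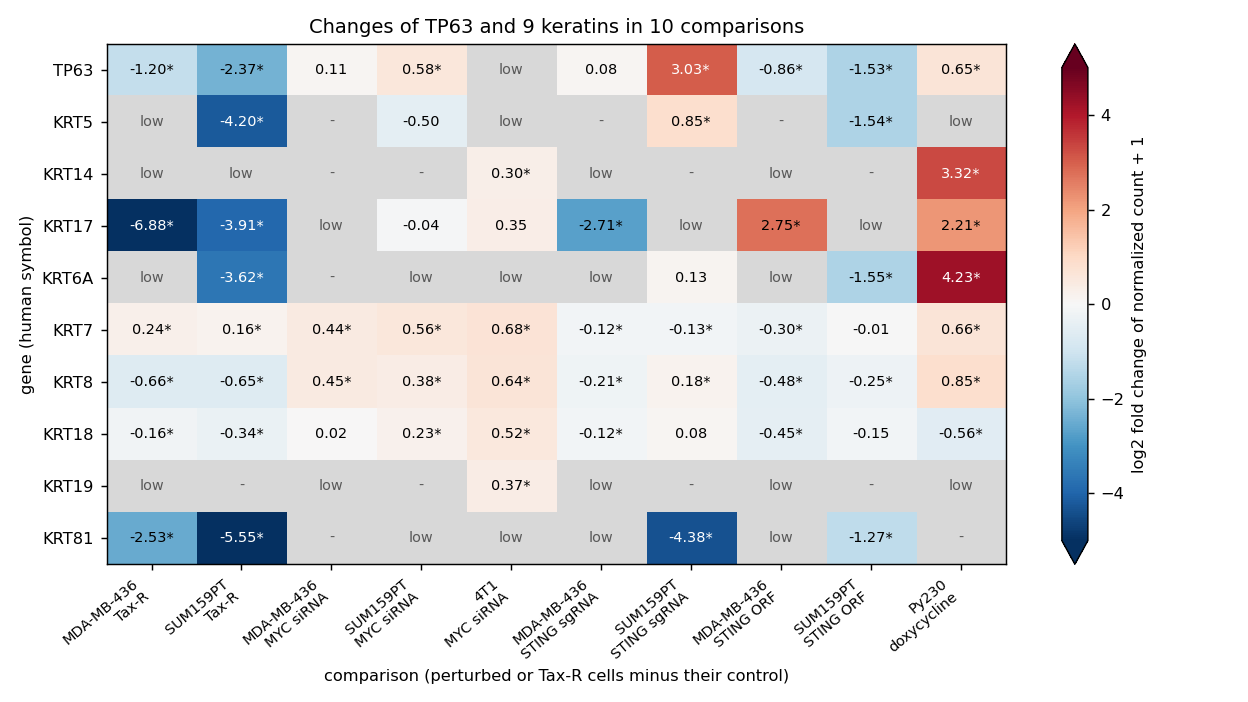
Log2 fold change on the log2(value + 1) scale (colour) of each member in each of the 10 comparisons, with an asterisk where limma's test passed, low for a member under the filter and a dash where the table gives no value. KRT7 and KRT8 are higher in all 3 MYC siRNA comparisons, and TP63, KRT5, KRT6A, KRT17 and KRT81 are lower in SUM159PT Tax-R cells.

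Tax-R cells of both lines had far less KRT17 and KRT81 than parental cells, SUM159PT Tax-R cells also far less KRT5 and KRT6A, and both had less TP63, moderately less KRT8 and slightly more KRT7. In MDA-MB-436, 6 members were tested and 1 was called higher and 5 lower, where 54.6% of the 19085 genes tested in that table (27.7% higher and 26.9% lower) were called. In SUM159PT, 8 members were tested and 1 was called higher and 7 lower, where 45.7% of the 18370 genes tested in that table (23.5% higher and 22.1% lower) were called. The median log2 fold change of the tested members was -0.93 in MDA-MB-436 and -3.00 in SUM159PT. KRT17 and KRT81 in both lines, and KRT5 and KRT6A in SUM159PT, averaged under 10 normalized counts in Tax-R cells. They passed the filter through the parental cells alone, which favours calls of lower. The counts of lower members and the medians are thus partly set by the filter.

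TP63 had 539.5 and 648 normalized counts in MDA-MB-436 Tax-R cells, against 1360.3 and 1360.4 in parental cells. The groups did not overlap and TP63 fell (log2 fold change -1.20 ± 0.07 SE, limma adjusted p = 9.34e-08). In SUM159PT it had 59.3 and 67.3 in Tax-R cells, against 295 and 372 in parental cells, again without overlap (log2 fold change -2.37 ± 0.13 SE, limma adjusted p = 7.78e-07). KRT5, the type II keratin of basal cells, had 6.14 and 7.92 in SUM159PT Tax-R cells against 158 and 134 in parental cells, a 20.8-fold lower mean (-4.20 ± 0.22, limma adjusted p = 5.56e-07). KRT6A, its wound-induced relative, had 9.21 and 8.91 against 121 and 124, a 13.5-fold lower mean (-3.62 ± 0.20, limma adjusted p = 7.43e-07). Both Tax-R libraries were low in each case and both parental libraries high. In MDA-MB-436 these genes were too low to test. KRT5 had 3 reads over the Tax-R libraries against 24 over the parental ones (a 7.06-fold lower mean, exact 95% interval 2.15 to 36.7). KRT6A had 0 against 18 (5.19-fold lower with a floor of 3 reads put in place of 0). KRT14, the type I partner of KRT5, had 0 against 38 (11.2-fold lower on the same floor). The folds on the floor leave out the counting error of the parental reads. In SUM159PT, KRT14 had 0 reads in Tax-R and 2 in parental libraries.

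KRT17, a type I keratin of basal and stressed epithelium, was nearly lost in the untreated Tax-R cells of both lines, set against parental cells. It had 2.0 and 1.03 normalized counts in MDA-MB-436 Tax-R cells against 300.0 and 281 in parental cells, which is 3 reads against 644 and a 192.0-fold lower mean (exact 95% interval 65.4 to 933, limma adjusted p = 2.66e-09). In SUM159PT it had 2.05 and 0.99 against 38.6 and 33.6, 3 reads against 68 and a 23.8-fold lower mean (exact 95% interval 7.80 to 118, limma adjusted p = 1.59e-05). These intervals cover counting error only, since reads are not independent molecules.

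KRT81, the hair keratin, had 4.09 and 6.93 normalized counts in SUM159PT Tax-R cells against 271 and 327 in parental cells, a 54.3-fold lower mean (-5.55 ± 0.25, limma adjusted p = 1.73e-07). In MDA-MB-436 it had 4.0 and 12.3 against 46 and 46.2 (-2.53 ± 0.39, limma adjusted p = 0.000214), a call that limma lost without the filter on low values (adjusted p = 0.0614). KRT86, a near-identical hair keratin that can share reads with KRT81, had 21.6 ± 5.91 against 105 ± 2.69 in SUM159PT (SD, n = 2 each) and 14.2 ± 4.55 against 53 ± 2.67 in MDA-MB-436, lower in both, so the split between the 2 genes is uncertain.

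The simple keratins moved much less. KRT8 had 1270.1 and 1353 normalized counts in MDA-MB-436 Tax-R cells against 2067 and 2080.1 in parental cells (-0.66 ± 0.04, limma adjusted p = 1.22e-07), and 1345 and 1380.2 against 2173 and 2109.9 in SUM159PT (-0.65 ± 0.04, limma adjusted p = 9.85e-07). KRT18, the type I partner of KRT8, had 640.3 and 646 in SUM159PT Tax-R cells against 802 and 826 (-0.34 ± 0.04, limma adjusted p = 0.000218). In MDA-MB-436 it had 657 and 683 against 731 and 763 (-0.16 ± 0.04, limma adjusted p = 0.0115), and limma lost this call without parental library 2 (adjusted p = 0.0832), without Tax-R library 1 (0.103) and without the filter (0.0674), as DESeq2 did (0.198). KRT7, the type II keratin of ducts, went the other way, with 1610.4 and 1572 against 1328 and 1370.0 in MDA-MB-436 (0.24 ± 0.04, limma adjusted p = 0.000212) and 2113 and 2085 against 1833 and 1931 in SUM159PT (0.16 ± 0.04, limma adjusted p = 0.00933). The SUM159PT call was lost without Tax-R library 1 (0.15, limma adjusted p = 0.0667), without the filter (0.0736) and in DESeq2 (0.162). KRT19, a type I simple keratin, had 9 reads in MDA-MB-436 Tax-R and 8 in parental libraries and was not tested.

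Genes tied to these keratins did not all follow them. Of the other keratins, 2 of 6 tested were higher and 2 lower (median log2 fold change 0.08) in MDA-MB-436, and 3 of 7 tested were higher and 2 lower (median log2 fold change 0.10) in SUM159PT. The median log2 fold change over all genes tested lay between -0.0119 and 0.0122 in every comparison. KRT15, a type I keratin of basal cells, had 239.6 ± 0.616 against 152 ± 13.7 in MDA-MB-436 and 73.4 ± 5.42 against 10.6 ± 0.786 in SUM159PT, higher in Tax-R cells of both. Of 22 genes of desmosomes and hemidesmosomes, the junctions that anchor keratin filaments, 2 of 18 tested were higher and 11 lower (median log2 fold change -0.31) in MDA-MB-436 and 9 of 18 tested were higher and 7 lower (median log2 fold change 0.10) in SUM159PT. ITGB4, the integrin subunit of hemidesmosomes, had 17.2 ± 0.302 against 145 ± 0.87 in MDA-MB-436 and 14.6 ± 1.05 against 156 ± 1.51 in SUM159PT. Of 21 p53 family members and known p63 targets, 2 of 16 tested were higher and 9 lower (median log2 fold change -0.48) in MDA-MB-436 and 6 of 16 tested were higher and 5 lower (median log2 fold change -0.04) in SUM159PT. TP73, the other p53 relative, had 122 ± 10.7 against 16 ± 1.08 in SUM159PT (SD, n = 2 each). The luminal list had 3 higher and 8 lower of 17 in MDA-MB-436 and 0 and 11 of 16 in SUM159PT. Among them ELF3, an epithelial transcription factor, had 113 ± 12.7 against 526 ± 18 in MDA-MB-436 and 2.52 ± 0.77 against 49.1 ± 3.33 in SUM159PT. The summed level of 7 leukocyte markers moved with these genes, at 286 to 425 in Tax-R against 2079 to 2186 in parental MDA-MB-436 libraries and 30.7 to 36.8 against 543 to 566 in SUM159PT. PTPRC made up most of it in every group but SUM159PT Tax-R cells. It had 309 ± 94.3 against 2047 ± 92.8 in MDA-MB-436 and 5.05 ± 1.54 against 533 ± 21.1 in SUM159PT, and its part in the result was not tested. COL3A1, a fibroblast marker, had 29.9 ± 6.97 against 711 ± 84.3 and 3.56 ± 3.64 against 535 ± 14.2, and its part was not tested either.

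**Figure D2:**
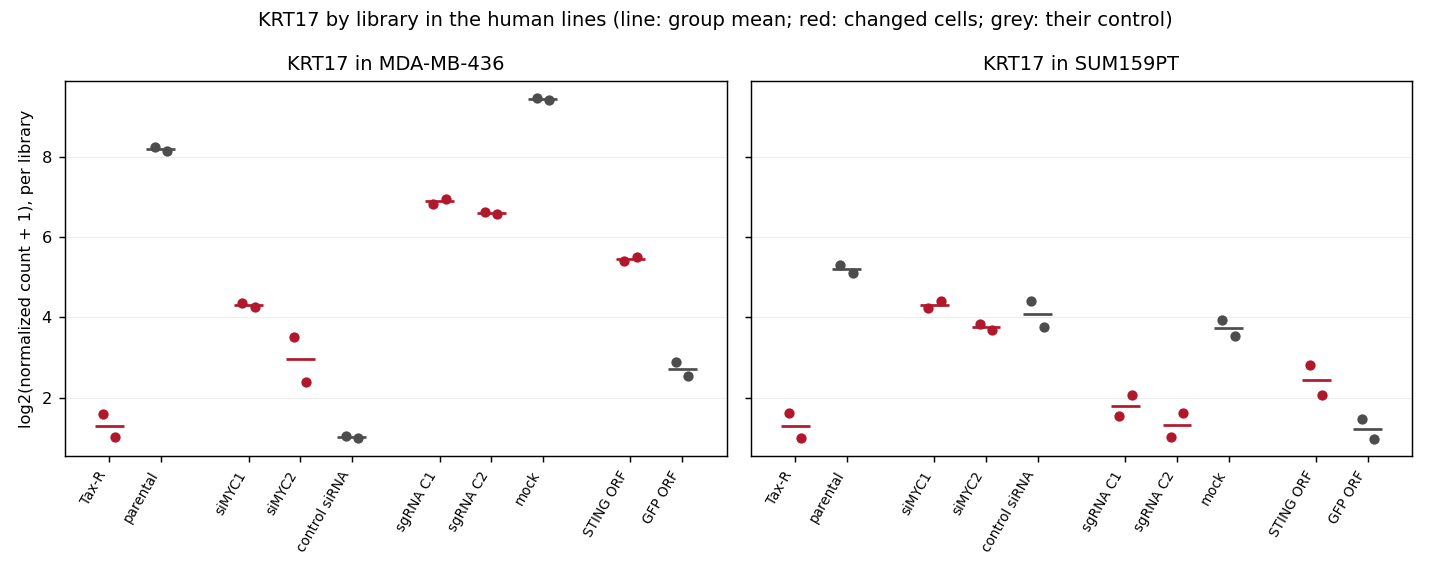
KRT17 per library (points, log2(normalized count + 1)) in the 4 MDA-MB-436 tables (left panel) and the 4 SUM159PT tables (right panel), with changed cells in red left of their control in grey and a line at each group mean. In MDA-MB-436 the Tax-R libraries, at 1.03 and 2.0 normalized counts, lie far below the parental libraries, at 281 and 300.0, and levels are comparable within a table only.

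In SUM159PT, the STING sgRNA went with more TP63 and KRT5 and with much less KRT81. Of 7 members tested, 3 were called higher and 2 lower, where 39.1% of the 15168 genes tested in that table (19.3% higher and 19.8% lower) were called. TP63 had 106 and 90.2 normalized counts in C1 and 108 and 116 in C2, against 12.4 and 11.5 in mock cells. All 4 sgRNA libraries were above both mock libraries, an 8.8-fold higher mean that rests on 416 reads against 25 (log2 fold change 3.03 ± 0.17 SE, limma adjusted p = 1.29e-18). KRT5 had 370.1 and 367 in C1 and 297 and 317 in C2, against 189 and 182 in mock cells, also without overlap (0.85 ± 0.08, limma adjusted p = 3.33e-12). KRT6A did not follow, with 122 and 127 in C1 and 128 and 103 in C2 against 103 and 116 (0.13 ± 0.12, limma adjusted p = 0.433). KRT81 had 13.3 and 6.29 in C1 and 12.3 and 10.3 in C2 against 218 and 245 in mock cells, a 21.9-fold lower mean (-4.38 ± 0.24, limma adjusted p = 3.87e-19), and its near-identical copy KRT86 had 11.6 ± 1.24 against 34.5 ± 5.57 (SD, n = 4 and 2). KRT17 had 8 reads over the 4 sgRNA libraries and 26 over the 2 mock libraries and was not tested.

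KRT8 had 8505 and 8508 normalized counts in C1 and 7385 and 7470.5 in C2, against 7140.0 and 6863 in mock SUM159PT cells (0.18 ± 0.03, limma adjusted p = 2.13e-06). KRT7 had 9135 and 9058 in C1 and 7953 and 8108 in C2 against 9724 and 8936, so the groups overlapped although the test passed (-0.13 ± 0.03, limma adjusted p = 0.000904). That call was lost for C1 alone (-0.04, limma adjusted p = 0.523) and without mock library 1 (-0.06, 0.0592). KRT18 had 3010.2 and 3003 in C1 and 2858 and 2799.8 in C2 against 2840.0 and 2685 (0.08 ± 0.04, limma adjusted p = 0.0812), and limma called it higher without mock library 1 (0.12, adjusted p = 0.0144), for C1 alone (0.12, 0.0284) and after quantile normalization (0.08, 0.0486). C2 set against C1 directly was lower for KRT5 (-0.26 ± 0.09, limma adjusted p = 0.0321), KRT7 (-0.18 ± 0.04, limma adjusted p = 0.000232) and KRT8 (-0.20 ± 0.03, limma adjusted p = 4.66e-05), 3 of 7 members where 19.9% of genes were called. The KRT5 difference was lost without any 1 of the 4 libraries (limma adjusted p = 0.0802 to 0.206), and limma lost all 3 without the filter on low values (0.0989, 0.118 and 0.0776).

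Among further keratins here, 1 of 4 tested was higher and 3 lower (median log2 fold change -0.69), and KRT75, a type II keratin of the hair follicle, had 2332 ± 160.5 against 1375 ± 63.4. Of the p53 family and p63 targets, 5 of 15 tested were higher and 4 lower (median log2 fold change 0.03). FRAS1, an extracellular matrix protein whose gene is a known p63 target in epidermis, had 189 ± 10.1 against 34.4 ± 5.25, and TP73 had 107 ± 16.6 against 45.9 ± 4.27 (SD, n = 4 and 2). Of the desmosome and hemidesmosome genes, 6 of 15 tested were higher and 3 lower (median log2 fold change 0.07). The summed leukocyte markers were at 9.27 to 14.2 with the sgRNA against 111 to 132 in mock cells (4 of the 7 were listed in this table), and the summed fibroblast markers at 1669 to 1875 against 1275 to 1343. PTPRC had 2.53 ± 1.77 against 104 ± 16 and COL3A1, a fibrillar collagen, had 1405 ± 88.1 against 92.8 ± 0.425. Their part in the result was not tested.

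The STING ORF in sgRNA-carrying SUM159PT cells went with less TP63, KRT5, KRT6A, KRT81 and KRT8. Of 7 members tested, 0 were called higher and 5 lower by limma, where 26% of the 14915 genes tested in that table (13.2% higher and 12.8% lower) were called, and none was higher at an unadjusted p below 0.05 or by edgeR or DESeq2. TP63 had 26.9 and 36.3 normalized counts with the STING ORF against 92.4 and 92.4 with GFP (log2 fold change -1.53 ± 0.20 SE, limma adjusted p = 2.58e-06). KRT5 had 58.9 and 44.8 against 170.0 and 134 (-1.54 ± 0.18, limma adjusted p = 2.59e-07), and KRT6A had 40.9 and 34.1 against 111 and 112 (-1.55 ± 0.18, limma adjusted p = 5.2e-07). For these 3 genes both STING ORF libraries were below both GFP libraries, at mean levels 2.92, 2.93 and 2.97 times lower. KRT81 had 19.96 and 11.7 against 33.1 and 44.3 (-1.27 ± 0.30, limma adjusted p = 0.00221), lost without GFP library 2 (-1.06, limma adjusted p = 0.0751) and in DESeq2 (0.0775). KRT8 had 7071 and 6614 against 8240.3 and 8043 (-0.25 ± 0.05, limma adjusted p = 0.000905), lost without GFP library 1 (-0.23, 0.145) or GFP library 2 (-0.27, 0.0707). KRT18 had 2769 and 2694 against 3061 and 2999 (-0.15 ± 0.06, limma adjusted p = 0.0797), called lower without STING ORF library 1 (-0.17, limma adjusted p = 0.00657) or STING ORF library 2 (-0.13, 0.0459) and after quantile normalization (-0.22, 0.0109). KRT7 had 13182 and 11797 against 12720.0 and 12343, with overlap (-0.01 ± 0.05, limma adjusted p = 0.939), and was called lower without STING ORF library 1 (-0.09, 0.0484). KRT17 had 9 reads with the STING ORF and 3 with GFP. Without the filter on low values, limma called 0 members and 0 genes, while 6 of 8 members and 6183 genes had an unadjusted p below 0.05, and edgeR and DESeq2 with the filter called 3916 and 1626 genes.

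Of the p53 family and p63 targets with the STING ORF, 1 of 15 tested was higher and 6 lower (median log2 fold change -0.22). CDKN1A, the cell cycle inhibitor p21, had 81.4 ± 2.02 against 296 ± 7.28, and JAG2, a Notch ligand, had 6.8 ± 3.96 against 29.7 ± 7.33 (SD, n = 2 each). Of the desmosome and hemidesmosome genes, 3 of 15 tested were higher and 7 lower (median log2 fold change -0.18), and ITGB4 had 3.53 ± 3.48 against 31.6 ± 4.66. Of the other keratins, 1 of 4 tested was higher and 1 lower (median log2 fold change -0.24), with KRT80, a type II epithelial keratin, at 2791 ± 160.3 against 1051 ± 64.8 and KRT75 at 1235 ± 90.9 against 2596 ± 102. The summed fibroblast markers were at 440.5 to 516 against 1095 to 1139 with GFP, and their part in the result was not tested.

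**Figure D3:**
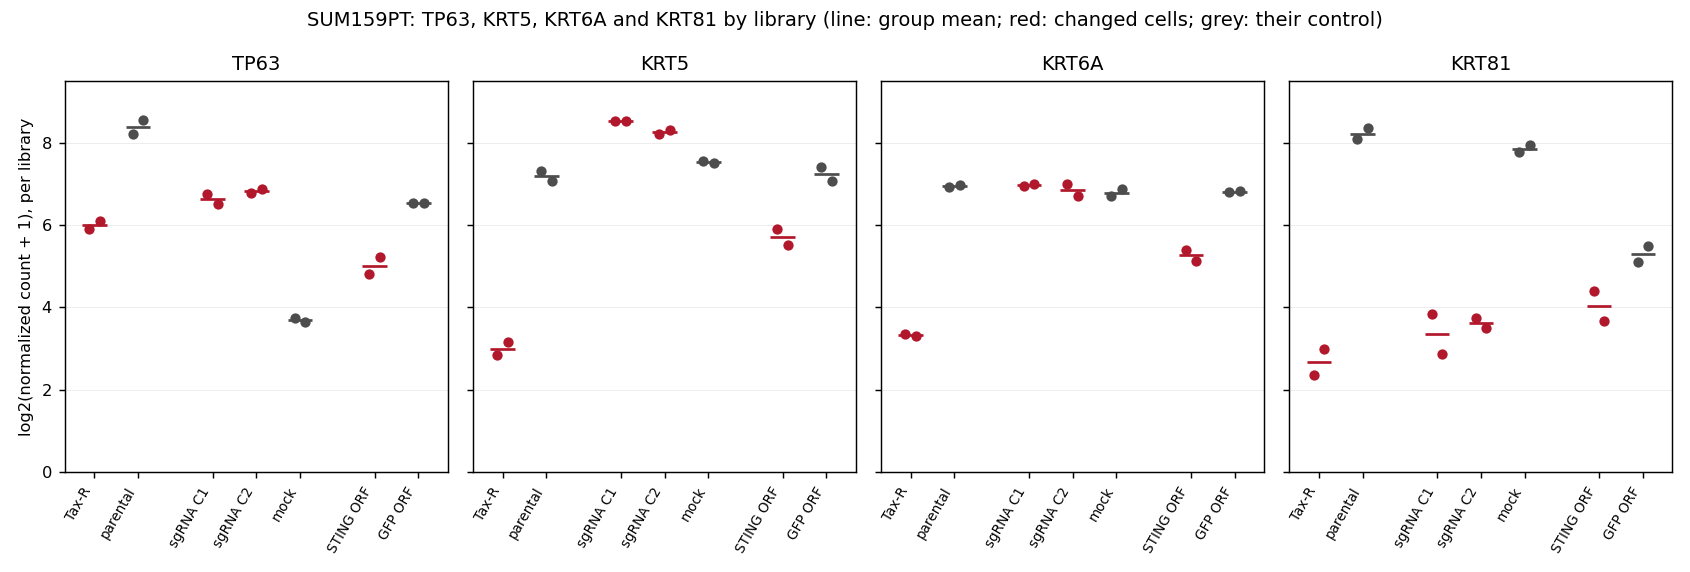
Log2(normalized count + 1) per library (points) of TP63, KRT5, KRT6A and KRT81 in the SUM159PT tables with Tax-R cells, the STING sgRNA and the STING ORF, each changed group in red left of its control in grey, with a line at each group mean. TP63 is at 90.2 to 116 with the sgRNA against 11.5 and 12.4 in mock cells, and at 26.9 and 36.3 with the STING ORF against 92.4 in both GFP libraries.

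The starts of TP63 and KRT5 are shown because these genes moved the same way in 3 of the 4 SUM159PT tables, lower in Tax-R cells, higher with the STING sgRNA and lower with the STING ORF. With MYC siRNA, TP63 was called higher (0.58) and KRT5, at -0.50, was not called. The sequences are the 250 bases before the RefSeq start in GRCh38.p14, on the gene's strand, and the capitals mark a match to the p53-family half-site. TP63 lies on the plus strand at chr3:189631139-189631388 and KRT5 on the minus strand at chr12:52520395-52520644.
TP63: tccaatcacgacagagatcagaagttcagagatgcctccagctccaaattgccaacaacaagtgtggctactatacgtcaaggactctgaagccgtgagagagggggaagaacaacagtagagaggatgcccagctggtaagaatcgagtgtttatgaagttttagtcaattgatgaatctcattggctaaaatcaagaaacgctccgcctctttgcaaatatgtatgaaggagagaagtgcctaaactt
KRT5: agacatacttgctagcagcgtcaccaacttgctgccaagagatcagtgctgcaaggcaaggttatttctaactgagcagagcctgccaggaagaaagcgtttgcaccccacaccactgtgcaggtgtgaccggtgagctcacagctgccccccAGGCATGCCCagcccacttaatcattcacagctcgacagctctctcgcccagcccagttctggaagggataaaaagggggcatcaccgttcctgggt
On both strands the window of KRT5 held 1 p53-family half-site, beginning 97 bases before the start, and that of TP63 held 0. CACGTG, the E-box that MYC can bind, and TGANTCA, an AP-1 site, were in neither. Among 35116 RefSeq promoter windows of that length, 5.57% held the half-site, 6.34% CACGTG and 6.57% TGANTCA. The GC content was 44% for TP63 and 56% for KRT5, beside a median of 58%. A match is a run of letters and not a bound site. TP63 has a second, internal set of starts for its short isoforms, and the gene counts pool both. Of the 10 members, 3 had an entry. The KRT8 window also held 1 p53-family half-site, beginning 136 bases before its start, and is not printed because it lies at a distant start.

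In MDA-MB-436, the STING sgRNA went with a large drop of KRT17 and small ones of the simple keratins, and TP63 was not called. Of 5 members tested, 0 were called higher and 4 lower by limma, where 47.8% of the 15305 genes tested in that table (24.8% higher and 23% lower) were called, and none was higher at an unadjusted p below 0.05 or by edgeR or DESeq2. KRT17 had 113 and 122 normalized counts in C1 and 97 and 94.1 in C2, against 706 and 688 in mock cells. All 4 sgRNA libraries were below both mock libraries, with a 6.53-fold lower mean (log2 fold change -2.71 ± 0.09 SE, limma adjusted p = 1.56e-20). TP63 had 557 and 561 in C1 and 554 and 561 in C2 against 519 and 538 (0.08 ± 0.06, limma adjusted p = 0.27). KRT14 had 7 reads over 4 sgRNA libraries against 48 over 2 mock libraries, KRT6A had 10 against 33, KRT81 had 17 against 20 and KRT19 had 4 against 0, and none of these was tested.

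KRT8 had 3807 and 3770.5 normalized counts in C1 and 3668 and 3593 in C2, against 4296 and 4278 in mock MDA-MB-436 cells (-0.21 ± 0.03, limma adjusted p = 2.53e-06), while the SUM159PT change was upward. The difference between the lines was not tested. KRT7 had 1796 and 1824 in C1 and 1686 and 1699 in C2 against 1926 and 1885 (-0.12 ± 0.04, limma adjusted p = 0.00985), and KRT18 had 2039.7 and 2039 in C1 and 1947 and 1936 in C2 against 2163 and 2156 (-0.12 ± 0.04, limma adjusted p = 0.00954). Limma lost both calls without mock library 1 (adjusted p = 0.155 for KRT7 and 0.109 for KRT18), without mock library 2 (0.0594 and 0.0926) and with C1 alone (0.205 and 0.136). None of the 5 members was called between C2 and C1 by limma, where 0.797% of genes were called, and 2 of 5 members had an unadjusted p below 0.05. Of the other keratins, 1 of 4 tested was higher and 2 lower (median log2 fold change -0.38), and KRT75 had 284 ± 11.7 against 692 ± 35.3. Of the desmosome and hemidesmosome genes, 7 of 17 tested were higher and 8 lower (median log2 fold change 0.00), with ITGB4 at 12.5 ± 1.97 against 47.6 ± 8.59. Of the p53 family and p63 targets, 3 of 13 tested were higher and 4 lower (median log2 fold change 0.03), with TP73 at 19.1 ± 2.81 against 56.4 ± 1.13 (SD, n = 4 and 2). The summed fibroblast markers were at 3559 to 4154 with the sgRNA against 4974 to 5044 in mock cells, and their part in the result was not tested.

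The STING ORF in sgRNA-carrying MDA-MB-436 cells went with more KRT17 and with less TP63, KRT7, KRT8 and KRT18. All 5 members tested were called by limma, 1 higher and 4 lower, where 21.1% of the 14851 genes tested in that table (9.2% higher and 11.9% lower) were called. KRT17, the 1 called higher, passed the filter through the STING ORF cells alone. KRT17 had 41.4 and 44.7 normalized counts with the STING ORF against 6.42 and 4.77 with GFP, which is 83 reads against 12 and a 7.69-fold higher mean (log2 fold change 2.75 ± 0.34 SE, limma adjusted p = 3.42e-07), for which DESeq2 gave no adjusted p. TP63 had 61.5 and 56.4 against 109 and 106 (-0.86 ± 0.18, limma adjusted p = 0.000577). KRT8 had 3116 and 2981 against 4580.2 and 3973 (-0.48 ± 0.07, limma adjusted p = 7.09e-06), and KRT18 had 1691 and 1633 against 2415 and 2148 (-0.45 ± 0.07, limma adjusted p = 3.13e-05). KRT7 had 3046 and 2969 against 3958 and 3451 (-0.30 ± 0.07, limma adjusted p = 0.00288), a call lost without GFP library 1 (-0.20, limma adjusted p = 0.0549) or STING ORF library 2 (-0.28, 0.0858). No group overlapped with its control for these 5 genes. KRT81 had 9 reads with the STING ORF and 16 with GFP, KRT14 had 2 and 0, KRT6A 0 and 1, and KRT19 1 and 2. Without the filter on low values limma called 0 of 9 members and 4 genes (adjusted p = 0.136 for KRT17), while 6 members and 5389 genes had an unadjusted p below 0.05.

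Among further keratins with the STING ORF, 0 of 5 tested were higher and 1 lower (median log2 fold change 0.00). Of the desmosome and hemidesmosome genes, 3 of 15 tested were higher and 5 lower (median log2 fold change -0.09), with DSP, the desmosomal plaque protein that binds keratin filaments, at 1285 ± 35.5 against 1882 ± 82.6. Of the p53 family and p63 targets, 1 of 11 tested was higher and 3 lower (median log2 fold change 0.00), with CDKN1A at 89.4 ± 11 against 207 ± 2.31 (SD, n = 2 each). The summed level of the 7 fibroblast markers was 2059.8 to 2201 with the STING ORF against 3101 to 3170.3 with GFP, mostly COL1A1 (1885 ± 85.6 against 2826 ± 42.9), and its part in the result was not tested.

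Levels of the same gene in the controls of different MDA-MB-436 tables were far apart, which limits any reading across tables. KRT17 was at 8.0 to 8.53 RPKM in parental cells, 32.2 to 33.1 in mock cells and 0.235 to 0.315 in sgRNA cells with GFP. TP63 was at 16.2, 10.2 to 10.6 and 2.19 to 2.25 in the same groups, although the C1 and C2 cells, also labelled with the STING sgRNA, had 10.8 to 10.9. KRT17 was at 4.37 to 5.66 in those C1 and C2 cells and at 2.087 to 2.255 in sgRNA cells with the STING ORF. In SUM159PT, TP63 was at 3.61 to 4.54 in parental, 0.224 to 0.239 in mock and 1.88 in GFP libraries. KRT17 in SUM159PT was at 0.9745 to 1.13 in parental and 0.0281 to 0.0582 in untreated Tax-R cells. In SUM159PT Tax-R cells with control siRNA, from another experiment, it was at 0.5775 to 0.939, so its near loss was not seen there. These RPKM values rest on recovered reads and library totals, so the separate normalization does not enter them, but the make-up of each library still does. Untreated Tax-R and parental libraries were deeper and had 28119 to 32506 genes with a read. The other human libraries had 22358 to 24020. Abundant keratins differed as well. KRT8 was at 26.7 to 26.9 in parental and 91.2 to 91.7 in mock MDA-MB-436 cells. KRT7 was at 40.85 to 42.9 in parental and 316 to 342 in mock SUM159PT cells. The differences between experiments and their cause were not tested.

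MYC siRNA went with more KRT7 and KRT8 in all 3 lines. Of the basal members, TP63 was called higher in SUM159PT and Krt14 in 4T1, and the others were not called or were too low to test. In MDA-MB-436 Tax-R cells, 4 members were tested, 2 were called higher and 0 lower by limma, where 67.7% of the 15399 genes tested in that table (34% higher and 33.7% lower) were called. In SUM159PT Tax-R cells, 6 were tested, 4 called higher and 0 lower, where 69.5% of the 15796 genes tested in that table (35% higher and 34.5% lower) were called. In 4T1 cells, 6 were tested, 5 called higher and 0 lower, where 46.2% of the 14081 genes tested in that table (24.7% higher and 21.5% lower) were called. No tested member was lower at an unadjusted limma p below 0.05 in any of the 3 lines, or in edgeR or DESeq2. The shares of tested members called were 50.00% in MDA-MB-436 and 66.7% in SUM159PT, no higher than the background of each table, and 83.3% in 4T1.

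KRT7 had 9184 and 8703 normalized counts with MYC siRNA-1 and 8273 and 8118 with MYC siRNA-2, against 6349.7 and 6229.7 with control siRNA in Tax-R cells of MDA-MB-436 (log2 fold change 0.44 ± 0.02 SE, limma adjusted p = 1.93e-16). In SUM159PT Tax-R cells it had 8730.1 and 8470.1 with siMYC1 and 8835 and 8933 with siMYC2, against 6182 and 5703 (0.56 ± 0.03, limma adjusted p = 1.33e-20). In 4T1 cells Krt7 had 7684, 7857 and 7742 with siMYC1 and 7455, 7566 and 7715 with siMYC2, against 5124, 4765 and 4519 (0.68 ± 0.04, limma adjusted p = 4.61e-13). In each line every MYC siRNA library was above every control library. KRT8 had 3104 and 3102 with siMYC1 and 2994 and 2992 with siMYC2, against 2242 and 2231 in MDA-MB-436 (0.45 ± 0.03, limma adjusted p = 3.71e-14), and 4313 and 4419 with siMYC1 and 4555 and 4419 with siMYC2, against 3417 and 3378 in SUM159PT (0.38 ± 0.03, limma adjusted p = 1.19e-13). Krt8 in 4T1 had 6844, 6896 and 6681 with siMYC1 and 6375, 6833 and 6963 with siMYC2, against 4799.7, 4158 and 4116 (0.64 ± 0.05, limma adjusted p = 1.41e-11). The mean levels of KRT7 and KRT8 were 1.36 and 1.36 times higher in MDA-MB-436, 1.47 and 1.3 times in SUM159PT and 1.6 and 1.55 times in 4T1.

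KRT18, the partner of KRT8, was not called in MDA-MB-436, with 1740.2 and 1771 normalized counts with siMYC1 and 1740.3 and 1836 with siMYC2, against 1746 and 1736 with control siRNA (0.02 ± 0.03, limma adjusted p = 0.534). Its values overlapped, and the ratio of KRT8 to KRT18 reads per length was 0.762 to 0.834 with MYC siRNA against 0.601 with control siRNA. In SUM159PT KRT18 had 1378 and 1316 with siMYC1 and 1412 and 1403 with siMYC2, against 1158 and 1184 (0.23 ± 0.05, limma adjusted p = 1.58e-05), and in 4T1 6153 to 6634 against 4808, 4436 and 4357 (0.52 ± 0.04, limma adjusted p = 7.32e-11). Krt19, which 4T1 cells express highly, had 1749 to 1949.8 against 1516, 1370.1 and 1395 (0.37 ± 0.05, limma adjusted p = 2.98e-07). KRT19 had 7 reads over 4 MYC siRNA libraries and 1 over 2 control libraries in MDA-MB-436.

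Among the basal members, TP63 had 71 and 63.8 normalized counts with MYC siRNA-1 and 54.3 and 76.8 with MYC siRNA-2, against 45.2 and 42.4 with control siRNA in SUM159PT (0.58 ± 0.17, limma adjusted p = 0.00219), where DESeq2 gave an adjusted p of 0.0521. In MDA-MB-436 it had 83 and 71.2 with siMYC1 and 89.2 and 80.4 with siMYC2, against 71.4 and 77.7 (0.11 ± 0.13, limma adjusted p = 0.466, and -0.0045 after quantile normalization). Trp63 in 4T1 had 41 reads over 6 MYC siRNA libraries and 10 over 3 control libraries and was not tested. KRT5 had 26.1 and 17.3 with siMYC1 and 12.3 and 23.6 with siMYC2, against 27.9 and 26.9 in SUM159PT (-0.50 ± 0.27, limma adjusted p = 0.0994), called lower without siMYC2 library 2 (-0.72, limma adjusted p = 0.0228). KRT17 had 17.8 and 20.04 with siMYC1 and 13.3 and 11.8 with siMYC2, against 20.2 and 12.4 there (-0.04 ± 0.30, limma adjusted p = 0.916). In MDA-MB-436, KRT17 had 39 reads with siMYC1 and 15 with siMYC2 against 2 with control siRNA, a 12.8-fold higher mean over both siRNAs (exact 95% interval 3.38 to 109), below the filter and not tested. KRT6A in SUM159PT had 34 reads against 6 and KRT81 17 against 6.

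Krt14 in 4T1 cells had 496 to 652 normalized counts over the 6 MYC siRNA libraries against 459, 490.5 and 434 with control siRNA (0.30 ± 0.07, limma adjusted p = 0.00125). Krt17 had 10.8 to 16.4 against 8.98, 9.47 and 13.4 (0.35 ± 0.26, limma adjusted p = 0.287). Krt5 and Krt6a were below the filter and uneven: Krt5 had 0, 4 and 1 reads with siMYC1, 6, 0 and 0 with siMYC2 and 6, 6 and 4 with control siRNA, and Krt6a had 0, 11 and 0 with siMYC1, 6, 0 and 0 with siMYC2 and 10, 18 and 3 with control siRNA. In most MYC siRNA libraries both had 0 or 1 reads, and in 1 library of each siRNA both had several. Without the filter, limma called Krt5 (log2 fold change -1.56, adjusted p = 0.0319) and Krt6a (-2.11, 0.0154) lower and Trp63 higher (1.10, 0.0412) in 4T1 cells with MYC siRNA. Between the siRNAs, 1 member was called, KRT7 in MDA-MB-436 (siMYC2 minus siMYC1 -0.13 ± 0.03, limma adjusted p = 0.0288), where 0.195% of genes were called. It was lost without siMYC1 library 1 (-0.09, limma adjusted p = 0.626), siMYC2 library 1 (-0.14, 0.0623) or siMYC2 library 2 (-0.11, 0.436). In SUM159PT and 4T1, limma, edgeR and DESeq2 called 0% of genes and 0 members between the siRNAs, with 0 members and 600 and 372 genes at an unadjusted limma p below 0.05.

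Most of the desmosome and hemidesmosome genes tested were higher with MYC siRNA in all 3 lines. Over all genes tested, 34% were called higher in MDA-MB-436, 35% in SUM159PT and 24.7% in 4T1. Most other keratins tested in the human lines were higher too, but of 30 listed only 4 were tested in MDA-MB-436 and 5 in SUM159PT. Of the other keratins, 3 of 4 tested were higher and 0 lower (median log2 fold change 0.57) in MDA-MB-436. KRT75 had 867 ± 29.9 against 195 ± 7.06 there and 1543 ± 45.3 against 316 ± 16.1 in SUM159PT (SD, n = 4 and 2). In SUM159PT, among those keratins, 4 of 5 tested were higher and 0 lower (median log2 fold change 1.29), with KRT80 at 3189 ± 60.1 against 1302 ± 9.28. Of those in 4T1, 1 of 4 tested was higher and 0 lower (median log2 fold change -0.42). Of the desmosome and hemidesmosome genes, 12 of 16 tested were higher and 4 lower (median log2 fold change 0.53) in MDA-MB-436, 11 of 16 tested were higher and 4 lower (median log2 fold change 0.58) in SUM159PT and 13 of 20 tested were higher and 2 lower (median log2 fold change 0.29) in 4T1. DSP had 982 ± 46.9 against 349 ± 5.15 in MDA-MB-436, and COL17A1, a hemidesmosomal collagen, had 158 ± 15.3 against 56.1 ± 7.99 there and 55.5 ± 10.5 against 6.95 ± 1.05 in SUM159PT. Of the p53 family and p63 targets, 10 of 13 tested were higher and 1 lower (median log2 fold change 0.76) in MDA-MB-436, 7 of 12 tested were higher and 2 lower (median log2 fold change 0.40) in SUM159PT and 5 of 14 tested were higher and 1 lower (median log2 fold change 0.13) in 4T1. CDKN1A, which MYC is known to repress, had 1819 ± 63.6 against 374 ± 21.7 and 2228 ± 42.5 against 715 ± 0.426 in the human lines. The mesenchymal list moved the same way, with 7 higher and 1 lower of 9 in MDA-MB-436, 5 and 0 of 9 in SUM159PT and 4 and 0 of 5 in 4T1. The summed level of 7 fibroblast markers was 6643 to 7533 with MYC siRNA against 546 to 554 in MDA-MB-436 and 25434 to 27309 against 3618 to 4144 in SUM159PT, mostly COL1A1, and its part in the result was not tested.

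**Figure D4:**
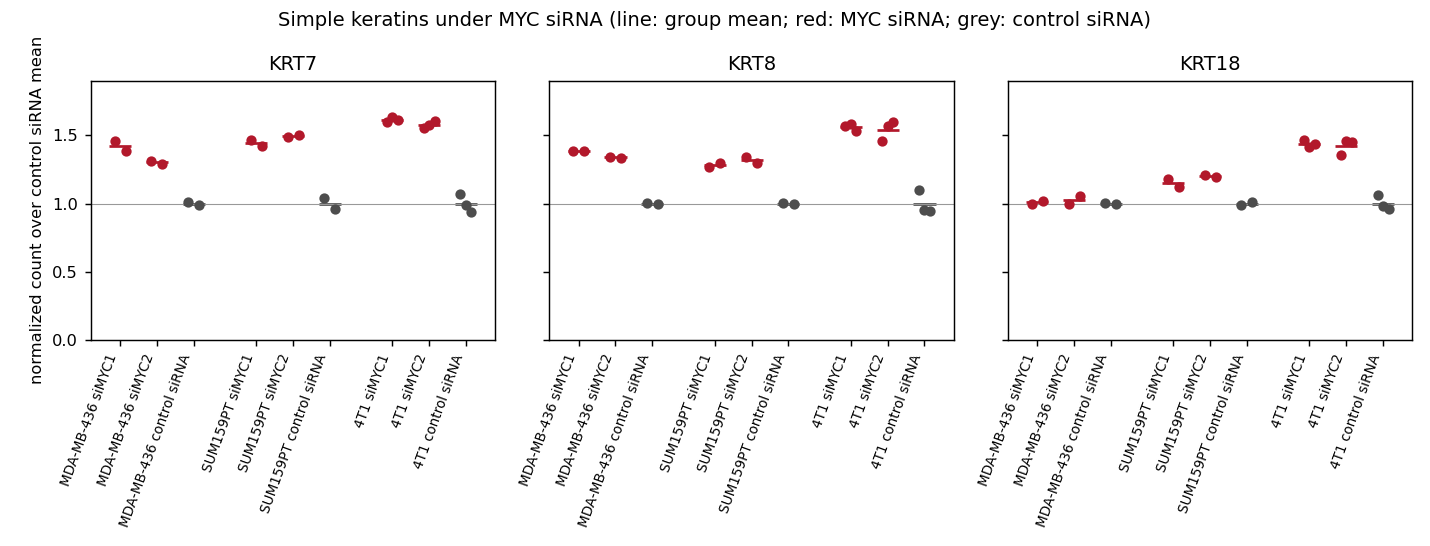
Normalized counts per library (points), divided by the mean of the control siRNA libraries of the same line, of KRT7, KRT8 and KRT18 with MYC siRNA-1, MYC siRNA-2 and control siRNA in MDA-MB-436 Tax-R, SUM159PT Tax-R and 4T1 cells. All MYC siRNA libraries lie above the control libraries for KRT7 and KRT8, and for KRT18 they overlap in MDA-MB-436.

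In Py230 cells, doxycycline induction of the Sting1 shRNA went with a rise of basal and stress keratins and with a split of the Krt8 and Krt18 pair. Of 7 members tested, 6 were called higher and 1 lower, where 67.8% of the 14461 genes tested in that table (32.8% higher and 35.1% lower) were called, and their median log2 fold change was 0.85. Krt6a, at a mean of 4.18 normalized counts in Dox(-) cells, passed the filter through the Dox(+) cells alone. Krt14 had 4835, 5222 and 5429.9 normalized counts in Dox(+) cells against 549, 489.8 and 510.5 in Dox(-) cells, a 9.99-fold higher mean (log2 fold change 3.32 ± 0.05 SE, limma adjusted p = 1.45e-24). Krt17 had 432, 458 and 491 against 122, 77 and 103 (2.21 ± 0.12, limma adjusted p = 1.42e-14), and Trp63 had 80.5, 99.5 and 87.7 against 58.6, 54.6 and 55.4 (0.65 ± 0.14, limma adjusted p = 0.000268). The groups did not overlap for these 3 genes. Krt6a had 50.2, 38.7 and 42.9 against 0, 12.5 and 0 (4.23 ± 0.61, limma adjusted p = 1.23e-06). Dox(-) library 2 held all 14 of the Krt6a reads in that group, the change was 5.48 without that library, and DESeq2 gave an adjusted p of 0.0935. Krt5, the usual partner of Krt14, stayed near 0 with 4, 0 and 1 reads in Dox(+) and 0, 6 and 0 in Dox(-) libraries, and Krt19 had 8 reads over the Dox(+) and 2 over the Dox(-) libraries.

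Krt8 had 3022, 2974 and 3030.4 normalized counts in Dox(+) cells against 1719, 1600.3 and 1692 in Dox(-) cells (0.85 ± 0.04, limma adjusted p = 5.78e-15), and Krt18, its partner, had 1572, 1458 and 1525 against 2193, 2206 and 2311 (-0.56 ± 0.04, limma adjusted p = 5.36e-11). The ratio of their normalized counts, not divided by gene length, was 1.92 to 2.04 in Dox(+) against 0.726 to 0.784 in Dox(-) libraries. Krt7 had 1141, 997 and 1138 against 671, 669.8 and 731 (0.66 ± 0.06, limma adjusted p = 3.43e-10). None of these groups overlapped. Myc moved in the same libraries, at 964 to 1020.1 normalized counts in Dox(+) against 2769.9 to 3281 in Dox(-) (log2 fold change -1.64 ± 0.05 SE, limma adjusted p = 1.41e-18), and its part in the result was not tested.

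Among further Py230 keratins, 6 of 6 tested were higher and 0 lower (median log2 fold change 2.62). Krt16, a stress keratin that pairs with Krt6 and is close in sequence to Krt14 and Krt17, had 1111 ± 114 against 19.9 ± 5.88 (SD, n = 3 each; log2 fold change 5.76, limma adjusted p = 1.86e-21). Krt6b, a near copy of Krt6a that may share its reads, had 40.1 ± 14.4 against 6.57 ± 11.4, with a Dox(-) spread larger than its mean. Of the desmosome and hemidesmosome genes, 16 of 19 tested were higher and 3 lower (median log2 fold change 0.58). Dsg3, the desmoglein of basal keratinocytes, had 513 ± 48.1 against 17.2 ± 4.49, Dsp 4245 ± 184 against 1446 ± 96.8 and Plec, the plectin that links filaments to hemidesmosomes, 6039.9 ± 244 against 1979.9 ± 19.6. Of the p53 family and p63 targets, 5 of 16 tested were higher and 6 lower (median log2 fold change 0.07), with Sfn, the cell cycle regulator 14-3-3 sigma, at 217 ± 20.5 against 51 ± 7.57. The luminal list had 4 higher and 11 lower of 21 tested, and Vim, the mesenchymal filament protein, had 2776 ± 198 against 802 ± 80.5. The summed leukocyte, fibroblast and endothelial markers were at 226 to 244, 264 to 354 and 18.8 to 21.8 in Dox(+) against 269.7 to 300.0, 282 to 366 and 13.9 to 17.1 in Dox(-) libraries.

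**Figure D5:**
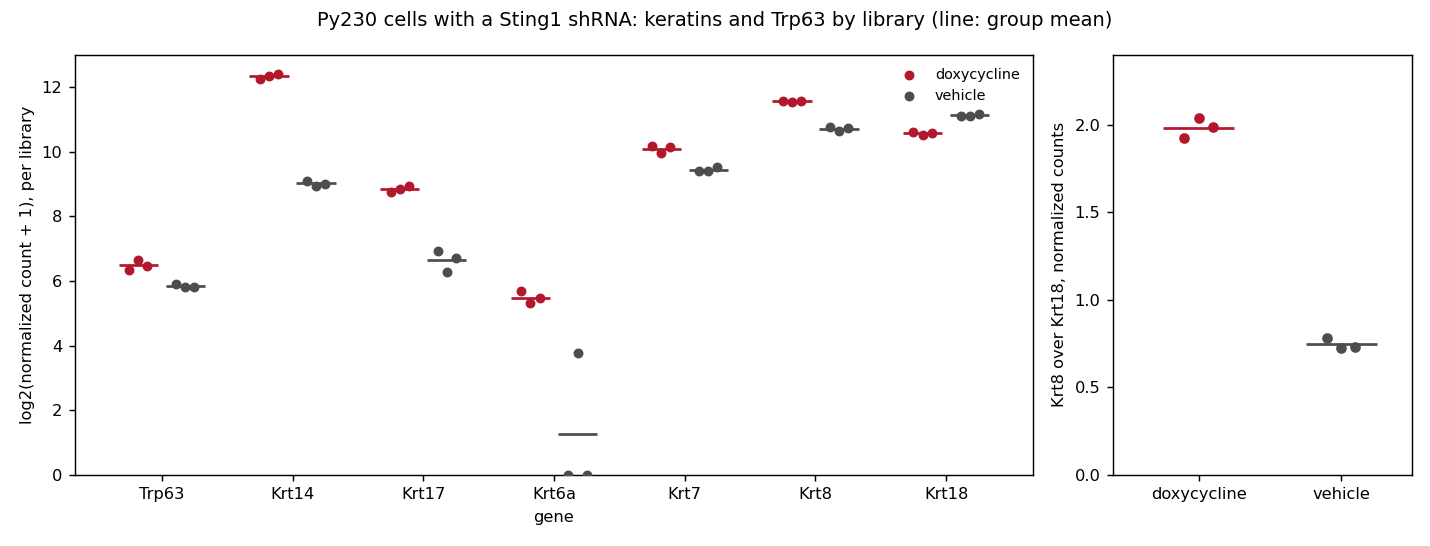
Left, log2(normalized count + 1) per library (points) of the 7 tested members in Py230 cells, doxycycline, Dox(+), left of vehicle, Dox(-), 3 libraries each with a line at the group mean; right, the ratio of Krt8 to Krt18 normalized counts, 1.92 to 2.04 against 0.726 to 0.784. Krt14 is at 4835 to 5429.9 in Dox(+) against 489.8 to 549 in Dox(-), and Krt18 is the single member that is lower in Dox(+).

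Across the 8 human comparisons, 4 members were tested in all, and the genes whose changes were most like theirs were ranked by the root mean square difference of log2 fold changes among 12378 genes. For TP63 they were TLCD2 (0.974), CCDC152 (1.01) and CRACR2B (1.01), each far from it given its own root mean square change of 1.57. For KRT7 they included OST4 (0.0842) and TBC1D9B (0.0849), beside its own 0.298. For KRT8 they were CTD-2020K17.3 (0.181), RP11-158L12.4 (0.184) and GCC1 (0.186), beside 0.445, and for KRT18 EGFLAM (0.127), TOB2 (0.133) and GORASP1 (0.138), beside 0.236. Other members were left out of the ranking.

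Other lists were read for the cells and programs beside the keratins, and their counts ranged widely over the 10 comparisons. Over all genes tested, 9.2% to 35% were called higher and 11.9% to 35.1% lower in these comparisons. Of 13 other intermediate filament proteins, 0 to 4 of 5 to 8 tested were higher and 1 to 3 lower, and LMNB1, a lamin of the nuclear envelope, had 265 ± 11 against 1213 ± 58.7 in SUM159PT Tax-R cells (MYC siRNA against control siRNA, SD, n = 4 and 2). Of 23 luminal and epithelial regulators, 0 to 7 of 11 to 21 tested were higher and 2 to 11 lower. Of 10 mesenchymal regulators, 1 to 7 of 5 to 9 tested were higher and 0 to 3 lower, and FN1, fibronectin, had 19753 ± 304 against 7077 ± 95.2 in the same cells. Of 7 fibroblast markers, 0 to 5 of 3 to 6 tested were higher and 0 to 4 lower. Of 5 endothelial markers, 0 to 2 of 0 to 4 tested were higher and 0 to 2 lower, and of 7 leukocyte markers, 0 to 1 of 0 to 3 tested were higher and 0 to 2 lower.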

How the data were processed

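Gene-level RNA-seq values of 55 libraries were analysed. The authors deposited 10 tables of normalized counts, a signal whose values are whole reads divided by 1 factor per library, and per the submitters' processing notes HISAT2, featureCounts, StringTie and DESeq2 were used, without versions. The aligner settings, strandedness and genome build are not given in the sources used here. Dividing each column by its smallest step gave whole reads for all values within a tolerance of 0.05.

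From the deposited normalized counts, genes that averaged 10 or more over a table were tested with limma-trend (limma 3.58.1, R 4.3.3) on log2(value + 1), with all groups of a table in 1 fit, the mean of both siRNAs or of C1 and C2 set against the control, two-sided tests and Benjamini-Hochberg adjustment over all genes tested. Fold changes of low genes are understated on that scale. The procedure was tested on simulated data. Each table was analysed alone. SDs with n = 4 pool the libraries of C1 and C2, or of both siRNAs, so they also hold any difference between those groups. Exact 95% intervals cover counting error only, and the floor of 3 reads leaves out the counting error of the other group. The p-values measure only the spread between these samples, which may be technical.

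The 10 members and the 9 gene lists (other keratins, other intermediate filament proteins, desmosome and hemidesmosome genes, p53 family and p63 target genes, luminal and epithelial regulators, mesenchymal regulators, and fibroblast, endothelial and leukocyte markers) were chosen with earlier results of these data known. The text names all members and, from each list and comparison, genes among the 3 with the largest called change, and the 3 nearest genes of members tested in all 8 human comparisons. KRT86 and Krt6b, near copies of members, and the genes that check the labels (EPCAM, MYC and STING1) were named as well. Some genes these rules select are not reported here. Promoter sequences came from a RefSeq table of GRCh38.p14. The settings varied were the pseudocount (4), the filter (none), the normalization (quantile), a replicate block, edgeR 4.0.16 and DESeq2 1.42.0 on the recovered reads, each siRNA or sgRNA group alone, each library left out, and 1 sample in place of both Tax-R libraries of MDA-MB-436.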

Additional observations from a re-analysis of the deposited data

Results flagged for a closer look

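Between siMYC2 and siMYC1, or between C2 and C1, 4 member values differed by limma's test of the difference. KRT7 was lower with siMYC2 than with siMYC1 in MDA-MB-436 Tax-R cells (log2 difference -0.13), where 0.195% of genes were called. In SUM159PT cells with the STING sgRNA, C2 was lower than C1 for KRT5 (-0.26), KRT7 (-0.18) and KRT8 (-0.20), where 19.9% of genes were called. Limma lost all 4 calls without the filter on low values. The KRT5 call was also lost without any 1 of the 4 libraries of C1 and C2. The siRNA call was lost without siMYC1 library 1, siMYC2 library 1 or siMYC2 library 2. The direction of KRT8 with the STING sgRNA was opposite in the human lines, with a log2 fold change of -0.21 in MDA-MB-436 and 0.18 in SUM159PT, where every sgRNA library was below both mock libraries in the first line and above both in the second. The difference between the lines was not tested.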

How the results depend on the processing

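Over all alternatives, 1027 of 1107 member values kept their direction and their side of the threshold, 47 were no longer called, 9 became called and 24 changed sign. No called member changed sign under any alternative run. Leaving out 1 library kept 473 of 518 member values. Quantile normalization, a pseudocount of 4, edgeR and the replicate block kept all 55 called member values, while limma without the filter on low values kept 37 of the 55. DESeq2 kept 48 of 54 and lost 6, and gave no adjusted p for KRT17 with the STING ORF in MDA-MB-436. The replicate numbers did not pair the samples (correlation of same-numbered deviations -0.0913 to 0.11). With the replicate block, 71 genes were called between siMYC2 and siMYC1 in MDA-MB-436, where 30 were called without it, and 195 between C2 and C1, where 122 were called without it. The block also called KRT18 lower with the STING ORF in SUM159PT (-0.15, limma adjusted p = 0.0117).

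DESeq2 called fewer genes, 5913 and 4447 for Tax-R, 4265 and 3198 for the STING sgRNA, 1074 and 1626 for the STING ORF and 19 and 905 between C2 and C1, in each case MDA-MB-436 and then SUM159PT. edgeR called 95 genes between siMYC2 and siMYC1 in MDA-MB-436. Without the filter, limma called 0 members and 0 genes between siMYC2 and siMYC1 in MDA-MB-436, 0 genes between C2 and C1 in MDA-MB-436, 0 members and 0 genes between C2 and C1 in SUM159PT, 0 members and 4 genes for the STING ORF in MDA-MB-436, 0 members and 0 genes for it in SUM159PT, and 8 members for MYC siRNA in 4T1 (Trp63 added higher, Krt5 and Krt6a added lower). Among other members under the filter, it called KRT5, KRT6A and KRT14 lower in MDA-MB-436 Tax-R, KRT6A and KRT14 lower with the STING sgRNA in MDA-MB-436, KRT17 lower with it in SUM159PT, and KRT17 in MDA-MB-436 and KRT6A in SUM159PT higher with MYC siRNA. At an unadjusted p below 0.05 and without the filter, limma held 2222 genes and 2 members between the siRNAs and 2740 genes and 3 members between C2 and C1 in MDA-MB-436, 5541 genes and 3 members between C2 and C1 in SUM159PT, and for the STING ORF 5389 genes and 6 members in MDA-MB-436 and 6183 genes and 6 members in SUM159PT. C1 alone gave 2 members in MDA-MB-436 and 3487 genes in SUM159PT. The cause of these changes was not tested.

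With 1 library left out, the counts ranged from 0 to 1 members and 6 to 44 genes (siMYC2 against siMYC1, MDA-MB-436), 0 to 2 genes (the same in SUM159PT), 2 to 5 members (STING sgRNA, MDA-MB-436), 5 to 382 and 1221 to 3403 genes (C2 against C1, MDA-MB-436 and SUM159PT), 1247 to 3610 genes (STING ORF, MDA-MB-436), and 3 to 7 members and 1257 to 5463 genes (STING ORF, SUM159PT). Values that were not called and changed sign were TP63 with MYC siRNA in MDA-MB-436 (-0.0045 after quantile normalization), KRT17 with MYC siRNA in SUM159PT (0.24 with siMYC1 alone, -0.37 to 0.29 with 1 library left out), Krt18 between the siRNAs in 4T1 (0.012 after quantile normalization, -0.036 to 0.015 with 1 library left out) and TP63 between C2 and C1 in MDA-MB-436 (0.0025 after quantile normalization, -0.014 to 0.0038). With 1 library left out, the same held between the siRNAs for KRT18 in MDA-MB-436 (-0.012 to 0.064), TP63 (-0.30 to 0.19) and KRT5 (-0.74 to 0.15) in SUM159PT, and Krt17 (-0.094 to 0.21), Krt8 (-0.044 to 0.019) and Krt19 (-0.064 to 0.015) in 4T1, between C2 and C1 in SUM159PT for KRT6A (-0.27 to 0.034) and KRT81 (-0.22 to 0.75), and for KRT7 with the STING ORF in SUM159PT (-0.087 to 0.073). Members under the filter rest on few reads per library.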
